A study of Rattus norvegicus with 6 samples.

Results

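The miR-99/100 and miR-125 guide strands are 5 mature miRNAs, miR-99a-5p, miR-99b-5p, miR-100-5p, miR-125a-5p and miR-125b-5p, and they were taken by name from the 753 known rat miRNAs of the count table. On day 14 after injection, small RNA of the lumbar cord was sequenced with 1 library per rat, in a bone cancer pain (BCP) group and a sham-operated (sham) group of 3 rats each. The BCP rats carried living Walker 256 mammary carcinoma cells in the left tibia and the sham rats carried heat-killed cells of the same line, so that injection of cells into the bone was common to both groups. The labels give the strain as Wistar and the study's methods give female Sprague Dawley rats. Age is not given in the sources used here. The tissue was the injected side of the lumbar enlargement without meninges, and it holds neurons, glia and vessels together. Fewer cells of a type and less miRNA per cell therefore cannot be told apart.

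A miRNA is cut from a hairpin precursor, and the strand that is kept in Argonaute, the guide strand, pairs with target mRNAs mainly through its seed, the bases next to its 5′ end. The miR-99/100 family and the miR-125 family are encoded in 3 conserved clusters, each of which also holds a let-7 precursor. miR-125 is the mammalian counterpart of lin-4 of the nematode, which with let-7 belongs to the classical developmental timing miRNAs, and Lin28 is a well-known target of both. miR-99 and miR-100 are known for targeting Mtor, the kinase at the core of growth signalling. In the nervous system miR-125b and let-7 are known as abundant miRNAs of differentiated cells.

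The mature sequences are shown because the family ties, and the way neighbouring members could be told apart by the reads, rest on them. Of the 5 members, 4 were matched by name to a mature sequence in RefSeq (GRCr8), the other being miR-99a-5p. The seed, bases 2 to 8, is in capitals, and the sequences are given 5′ to 3′.
rno-miR-99b-5p: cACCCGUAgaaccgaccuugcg
rno-miR-100-5p: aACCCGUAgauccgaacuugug
rno-miR-125a-5p: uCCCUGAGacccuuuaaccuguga
rno-miR-125b-5p: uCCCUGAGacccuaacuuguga

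miR-99b-5p and miR-100-5p shared the seed ACCCGUA and 18 of 22 positions. They differed by C1A, A11U, C16A and C21U, with miR-99b-5p first and positions counted from 1 at the 5′ end. miR-125a-5p and miR-125b-5p shared the seed CCCUGAG and their first 13 bases, and their lengths were 24 and 22 bases. The GC content was 63.6% in miR-99b-5p and 50.0% in each of the other 3. None of the 4 sequences was found under another of the 688 names, of 753, that have a mature sequence in RefSeq, and the remaining names were not compared. How the authors assigned reads that match several miRNAs is not stated in the sources used here.

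In the RefSeq annotation the precursors lie in the order Mir99a, Mirlet7c1 and Mir125b2 in one cluster, Mir100, Mirlet7a-2 and Mir125b1 in the next, and Mir99b, Mirlet7e and Mir125a in the last. All lie on the plus strand. The first, second and last span hold 3, 4 and 4 annotated miRNA genes, and only the precursors named here were followed. The first cluster is spanned by the gene LOC103693508, the second by Mir100hgl and Lnc215, and the last by Spaca6. miR-125b-5p can come from Mir125b2 or Mir125b1, and the table holds 1 value for both. let-7c-5p and let-7a-5p are each listed with 2 precursors in RefSeq, so their counts need not come from these clusters alone. The let-7 guide strands of the clusters share a seed of their own and are shown for comparison with the members.
rno-let-7c-5p: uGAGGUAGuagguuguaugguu
rno-let-7a-5p: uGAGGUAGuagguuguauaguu
rno-let-7e-5p: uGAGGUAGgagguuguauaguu

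let-7a-5p and let-7c-5p differed by A19G alone, and let-7a-5p and let-7e-5p by U9G alone, with let-7a-5p first. They are thus closer to each other than miR-99b-5p is to miR-100-5p. miR-99a-5p had no matched sequence, so how close it is to miR-100-5p, and how well their reads are told apart, was not examined.

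Library totals ranged from 13464349 to 23770677 counts, and 3 counts, the limit that a count of 0 allows, corresponded to between 0.126 and 0.223 CPM (counts scaled to a common library size). This limit was computed on unadjusted library totals, and the other CPM values on TMM-adjusted totals. Neuronal miRNAs (miR-124-3p, miR-128-3p, miR-9a-5p) summed to between 121047 and 136378 CPM. Skeletal muscle miRNAs summed to at most 120 CPM in any library. miR-451-5p, miR-144-3p and miR-144-5p of erythroid cells were listed at 0 in every library, and miR-486 was not listed under that name. Of all 753 listed miRNAs, 150 were at 0 in every library. Of the 4 leukocyte miRNAs listed, both arms of miR-142 were at 0, and miR-150-5p and miR-223-3p were detected, with a sum of 975 to 1379 CPM per library. miR-223-3p was called, with a log2 fold change of 2.13 (adjusted p = 0.0190, edgeR quasi-likelihood test). Of all 459 miRNAs tested, 16 differed between BCP and sham at the thresholds of the study.

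The 5 guide strands together took a large and steady part of every library. Their summed share of all counts was 21.4%, 21.96% and 20.9% in BCP rats 1, 2 and 3, against 21.5%, 21.6% and 21.6% in sham rats 1, 2 and 3. The BCP values lay on both sides of the sham values. The mean was 21.4% ± 0.546 (SD, n = 3 rats) for BCP against 21.6% ± 0.0756 (SD, n = 3 rats) for sham, a difference smaller than the SD of the BCP rats. The miR-99/100 family made up 16.4% ± 0.399 (SD, n = 3 rats) of the BCP libraries and 16.4% ± 0.403 (SD, n = 3 rats) of the sham libraries. For the miR-125 family these values were 5.02% ± 0.393 and 5.18% ± 0.374 (SD, n = 3 rats each). The Wilson 95% interval of the summed share was at most 0.0442 percentage points wide in any library, which is small beside the SD of the BCP rats but not beside the SD of 0.0756 points of the sham rats. Such intervals cover counting error only, because reads were amplified and carried no molecular identifiers.

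miR-99a-5p was the most abundant miRNA in each of the 6 libraries. Its share was 12.5%, 13.4% and 13.1% in the BCP rats against 12.5%, 12.3% and 13.2% in the sham rats, and the groups overlapped. The next miRNAs by mean level were miR-9a-5p and miR-127-3p, with 6.67% and 6.17% of the counts on average against 12.8% for miR-99a-5p. miR-125b-5p ranked 7 or 8 in every library and miR-100-5p ranked 9 or 10. miR-125a-5p and miR-99b-5p stood lower, at ranks 18 to 22 and 23 to 29.

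The order of the members was the same in all 6 rats. By mean CPM it was miR-99a-5p (128191), miR-125b-5p (38348), miR-100-5p (26600), miR-125a-5p (12686) and miR-99b-5p (9094), on the scale of the TMM-adjusted library total. Each read stands for a whole strand, so levels were not divided by length. miR-99a-5p exceeded miR-125b-5p by 3.08-fold to 3.72-fold, and miR-125b-5p exceeded miR-100-5p by 1.31-fold to 1.54-fold. miR-100-5p exceeded miR-125a-5p by 1.80-fold to 2.38-fold, and miR-125a-5p exceeded miR-99b-5p by 1.34-fold to 1.48-fold. Each of these 4 steps was seen in 6 of 6 libraries, and since the order was taken from the same libraries it is given with no test. The levels are read counts, and unequal capture of different sequences during library preparation was not measured here.

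**Figure D1:**
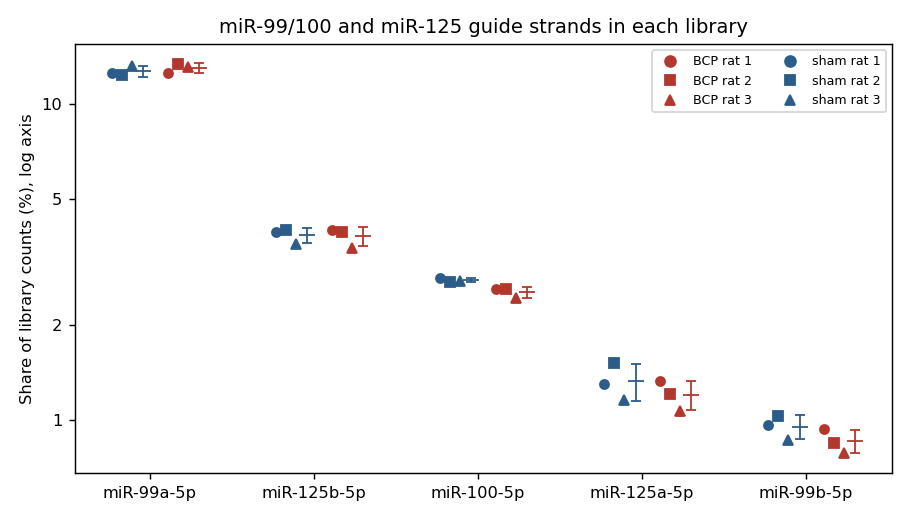
Share of the total counts of each library taken by each of the 5 guide strands, in percent on a log axis. Points are single rats, and the bars beside them are the mean with the SD of 3 rats. miR-99a-5p lies between 12.3% and 13.4% in all libraries, and the BCP and sham points of miR-100-5p do not overlap on this scale.

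Which of the guide strands differed between BCP and sham rats was tested with edgeR in the whole table. Of the 5, 0 were called, against 3.49% of the 459 tested miRNAs at an adjusted p below 0.05 and an absolute log2 fold change above 0.8, and 3.92% at the adjusted p alone. At an unadjusted p below 0.05 the count was also 0 of 5, against 13.1% of all tested miRNAs in either direction, 10.7% higher in BCP and 2.4% lower. That count rested on sham rat 3: without it, miR-99b-5p and miR-125a-5p, 2 of the 5, had an unadjusted p below 0.05, both lower in BCP, as did 28.8% of all tested miRNAs in either direction and 16.2% with BCP lower. DESeq2, limma-voom and edgeR's exact and likelihood ratio tests also called 0 of the 5. Of all 459 tested miRNAs they called 19, 16, 24 and 25, in the same order. The median log2 fold change of the members was -0.11, against -0.0034 over all tested miRNAs. 1 was positive and 4 were negative.

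miR-99a-5p had 125929, 132536 and 132512 CPM in BCP rats 1, 2 and 3, against 128625, 124419 and 125143 CPM in sham rats 1, 2 and 3. The sham values lay within or below the BCP range, and the groups overlapped. The log2 fold change was 0.048 with a 95% interval from -0.12 to 0.22 (adjusted p = 0.819, edgeR quasi-likelihood test). Of the 5 intervals this was the narrowest.

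miR-100-5p, its relative in the second cluster, had 26253, 25772 and 24644 CPM in the BCP rats against 29053, 27709 and 26176 CPM in the sham rats. Sham rat 3 lay between BCP rats 1 and 2, and the other sham rats lay above all BCP rats. The log2 fold change was -0.11 with a 95% interval from -0.30 to 0.076 (adjusted p = 0.623, edgeR quasi-likelihood test). As a share of the unadjusted library total, miR-100-5p took 2.60%, 2.60% and 2.43% in the BCP rats against 2.82%, 2.74% and 2.77% in the sham rats, and on this scale every BCP rat was below every sham rat. The two-sided exact permutation test gave p = 0.1, the smallest possible with 3 rats against 3, and adjusted p = 0.5 over the 5 members. No other member had shares that did not overlap. Of all tested miRNAs, 20.3% had shares that did not overlap between the groups, 8.71% with the lower share in BCP. With TMM scaling, 18.5% did not overlap, 5.23% with BCP lower, and 0 of the 5 members were among them.

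miR-125b-5p, the product of the first and second cluster, had 40424, 38964 and 35601 CPM in the BCP rats against 40505, 40395 and 34205 CPM in the sham rats. The third rat of each group was the lowest and the groups covered nearly the same range. Its log2 fold change was -0.0015, with a sign that turned under other settings, and the 95% interval ran from -0.23 to 0.23 (adjusted p = 1.00, edgeR quasi-likelihood test).

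miR-125a-5p and miR-99b-5p come from the last cluster, and the annotated miR-125a-5p is longer than the lengths by which the study's methods identify known miRNAs. miR-125a-5p had 13407, 12040 and 10867 CPM in the BCP rats against 13402, 15382 and 11020 CPM in the sham rats. miR-99b-5p had 9469, 8446 and 8030 CPM in the BCP rats against 9976, 10417 and 8224 CPM in the sham rats. In both strands the highest value was that of sham rat 2, the lowest was that of BCP rat 3, and the groups overlapped. The log2 fold changes were -0.13 with a 95% interval from -0.45 to 0.19 for miR-125a-5p, and -0.14 with an interval from -0.41 to 0.13 for miR-99b-5p (adjusted p = 0.730 and 0.662, edgeR quasi-likelihood test). Without sham rat 2 these values were -0.017 and -0.078, and without sham rat 3 they were -0.28 and -0.27, in the same order (adjusted p = 0.145 and 0.113 without sham rat 3, edgeR quasi-likelihood test). Without BCP rat 1 both were -0.23, and without BCP rat 3 that of miR-125a-5p was -0.069.

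The other strands of the named precursors in the 3 clusters are the let-7 guide strands and the 3p arms, which are mostly passenger strands. Of 12 listed, 11 passed the filter on low counts and 0 were called, against 3.49% of all tested miRNAs, with a median log2 fold change of -0.069. Of the 11, 3 were positive and 8 negative, and 1 had an unadjusted p below 0.05, against 13.1% of all tested. The let-7 guide strands had log2 fold changes of -0.079 for let-7c-5p, -0.058 for let-7a-5p and -0.12 for let-7e-5p (adjusted p = 0.900, 0.916 and 0.812, edgeR quasi-likelihood test). miR-99a-3p was the strand with the unadjusted p below 0.05. Its counts were 222, 142 and 151 in the BCP rats against 105, 108 and 123 in the sham rats, which is 9.81 ± 0.567 CPM against 7.63 ± 0.564 CPM (SD, n = 3 rats each). The groups did not overlap, with BCP higher, as for 13.3% of all tested miRNAs. Its log2 fold change was 0.36 with a 95% interval from 0.040 to 0.68 (unadjusted p = 0.0317, adjusted p = 0.286, edgeR quasi-likelihood test), so the adjusted p missed the threshold.

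Among the other miRNAs of the table that have a sequence in RefSeq, the seed of the miR-125 family was shared by miR-351-5p alone, and the seed of miR-99b-5p and miR-100-5p by no further miRNA. miR-351-5p is printed because its first 8 bases were those of miR-125b-5p and the bases after them were not. The miR-10 family is the wider relative of miR-99/100, and miR-10a-5p had a stretch of 11 bases in common with miR-100-5p, guagauccgaa, while its seed differed.
rno-miR-351-5p: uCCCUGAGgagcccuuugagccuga
rno-miR-10a-5p: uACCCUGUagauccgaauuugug

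miR-351-5p was scarce, with 86.2 CPM on average against 12686 CPM for miR-125a-5p and 38348 CPM for miR-125b-5p. Its log2 fold change was -0.33 with a 95% interval from -0.67 to 0.011 (adjusted p = 0.404, edgeR quasi-likelihood test). miR-10a-5p and miR-10b-5p, which are encoded in the HOX clusters, had log2 fold changes of 0.17 and 0.076 (adjusted p = 0.538 and 0.742, same edgeR test). The seed CCCUGAG was thus carried almost wholly by miR-125b-5p and miR-125a-5p in these libraries.

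**Figure D2:**
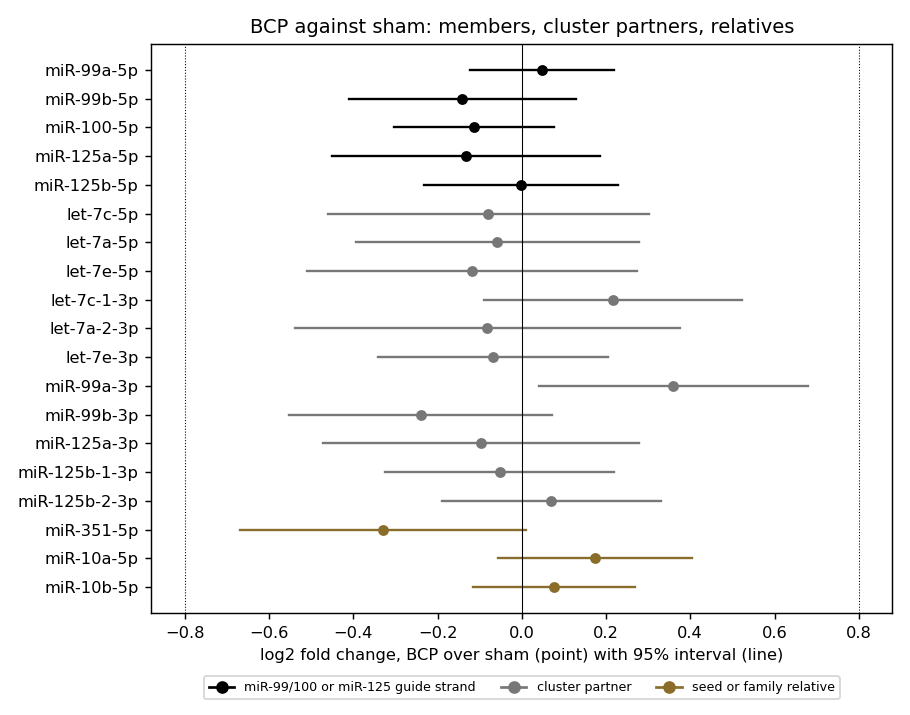
The log2 fold change between BCP and sham rats (points) with its 95% interval from edgeR (lines) for the 5 guide strands, the 11 tested strands of the same clusters, and miR-351-5p, miR-10a-5p and miR-10b-5p. The dotted lines mark the threshold of 0.8 in either direction. The intervals of all 5 guide strands include 0 and lie inside the dotted lines, and that of miR-99a-3p runs from 0.040 to 0.68.

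Ratios between members do not depend on the library size, so they show changes within the families apart from the rest of the library. Of the 8 ratios, 1 did not overlap between the groups, against 22.4% of the ratios of every pair of tested miRNAs with a mean of at least 1000 CPM. That one was the ratio of miR-99a-5p to miR-100-5p, which was 4.80, 5.14 and 5.38 in BCP rats 1, 2 and 3, against 4.43, 4.49 and 4.78 in sham rats 1, 2 and 3. BCP rat 1 and sham rat 3 nearly met. The BCP ratio was higher by 0.16 on the log2 scale, or 1.12-fold (two-sided exact permutation test, p = 0.1, adjusted p = 0.533 over the 8 ratios).

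Within the clusters, miR-99a-5p was counted 3.12, 3.40 and 3.72 times as often as miR-125b-5p in the BCP rats against 3.18, 3.08 and 3.66 times in the sham rats. The third rat of each group was the highest. miR-99b-5p stood to miR-125a-5p as 0.706, 0.702 and 0.739 in the BCP rats against 0.744, 0.677 and 0.746 in the sham rats, a narrow range across all 6. Between the groups these ratios differed by 0.047 and -0.013 on the log2 scale (exact permutation test, p = 0.7 and 0.8). The ratio of miR-100-5p to miR-125b-5p was 0.667 in the BCP group and 0.722 in the sham group as geometric means, a log2 difference of -0.11 (exact permutation test, p = 0.2). The remaining 4 ratios differed by 0.025 to 0.19 on the log2 scale, with p from 0.2 to 0.8 before adjustment and from 0.533 to 0.8 after it.

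Each member was by far more abundant than its listed 3p arms, by amounts that differed widely between the members. For miR-125b-5p the count covers both precursors, so the balance of arms in each of them was not measured. miR-99a-5p was counted 12673 to 17516 times as often as miR-99a-3p. miR-125a-5p exceeded its 3p arm by 334-fold to 384-fold, miR-99b-5p by 29.8-fold to 33.0-fold, and miR-125b-5p exceeded the sum of miR-125b-1-3p and miR-125b-2-3p by 43.5-fold to 46.1-fold. For miR-100-3p the counts were 7, 4 and 1 in the BCP rats against 6, 0 and 1 in the sham rats, so no ratio was computed for it.

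The 3p arms tell the 2 precursors of miR-125b-5p apart. miR-125b-2-3p, from the cluster of miR-99a, had 570 ± 52.4 CPM in the sham group and 599 ± 36.2 CPM in the BCP group (SD, n = 3 rats each). miR-125b-1-3p, from the cluster of miR-100, had 278 ± 22.2 CPM and 268 ± 20.5 CPM (SD, n = 3 rats each). Their log2 fold changes were 0.070 and -0.053 (adjusted p = 0.827 and 0.914, edgeR quasi-likelihood test).

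**Figure D3:**
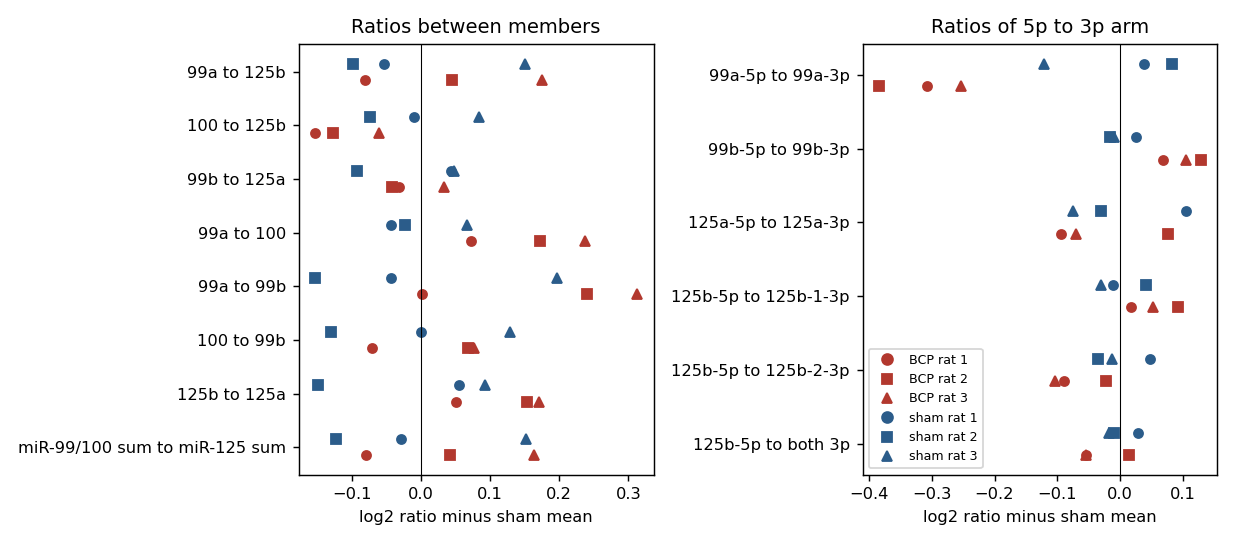
Log2 ratios between members (left) and of the 5p to the 3p arm (right) in each rat, with the mean of the sham rats set to 0 in each row. The 5p count of miR-125b covers both of its precursors. In the left panel only the row 99a to 100 is free of overlap between BCP and sham, and in the right panel the rows of miR-99a and miR-99b are.

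The arm ratio of miR-99a was 13374, 12673 and 13875 in the BCP rats against 16991, 17516 and 15214 in the sham rats, with all BCP rats lower. That of miR-99b was 31.6, 33.0 and 32.4 in the BCP rats against 30.7, 29.8 and 29.9 in the sham rats, with all BCP rats higher. The differences between the groups were -0.32 and 0.10 on the log2 scale (two-sided exact permutation test, p = 0.1 for each, adjusted p = 0.3 over 6 ratios). Of all 149 tested pairs of arms with counts in all libraries, 12.8% did not overlap between the groups. The other arm ratios overlapped, with differences from -0.072 to 0.054.

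The spread between rats of a group differed widely among the members. miR-99a-5p varied least, with a pooled SD of log2 CPM within groups of 0.035, below all but 2.70% of the 74 miRNAs with at least 1000 CPM. For miR-100-5p, miR-125b-5p, miR-99b-5p and miR-125a-5p the SD was 0.063, 0.12, 0.15 and 0.20, against a median of 0.16 over the 74 miRNAs. The highest sham rat exceeded the lowest by 1.03-fold in miR-99a-5p and by 1.40-fold in miR-125a-5p.

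The strands of the last cluster were highest in the same rat of each group. Their lowest rat was shared in the sham group but not in the BCP group. In sham rats 1, 2 and 3, miR-125a-5p departed from its group mean by 0.028, 0.23 and -0.25 on the log2 scale, and miR-99b-5p by 0.072, 0.13 and -0.21. let-7e-5p, their neighbour in the same cluster, departed by 0.058, 0.27 and -0.33. All 3 strands were highest in rat 2 and lowest in rat 3. In the BCP rats, miR-125a-5p departed by 0.15, -0.0024 and -0.15, miR-99b-5p by 0.13, -0.031 and -0.10, and let-7e-5p by 0.25, -0.14 and -0.11, with rat 1 highest in each. miR-100-5p and miR-125b-5p were also lowest in sham rat 3 and highest in BCP rat 1, but their highest sham rat was rat 1, with departures of 0.073, 0.0046 and -0.078 and of 0.083, 0.079 and -0.16 in sham rats 1, 2 and 3. miR-99a-5p was neither lowest in sham rat 3 nor highest in BCP rat 1. It departed by 0.029, -0.019 and -0.010 in the sham rats and by -0.049, 0.025 and 0.024 in the BCP rats, whereas let-7c-5p of the same cluster departed by 0.047, 0.24 and -0.29 and by 0.28, -0.10 and -0.17.

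**Figure D4:**
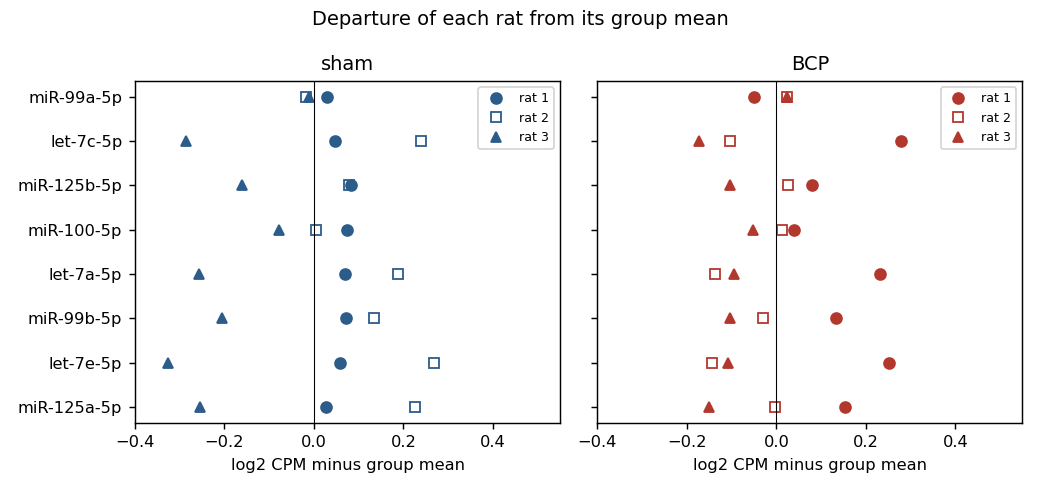
Departure of each rat from the mean of its own group, as a difference of log2 CPM, for the 5 guide strands and the 3 let-7 guide strands of the same clusters. The left panel holds the sham rats and the right panel the BCP rats. All rows but miR-99a-5p have sham rat 3 on the far left and BCP rat 1 on the far right.

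This order was not particular to the clusters. Of the 459 tested miRNAs, 44.0% were higher in BCP rat 1 than in BCP rat 3 and also higher in sham rat 2 than in sham rat 3, and 36.8% were lower in both. Of the members, 4 of 5 were higher in both, the other being miR-99a-5p. Summed levels of cell type markers also varied between the rats, and most sums were carried by 1 strand. Oligodendrocyte miRNAs (miR-219a-5p, miR-219a-2-3p and miR-338-3p, all 3 detected) summed to 15233, 13542 and 12903 CPM in BCP rats 1, 2 and 3, against 16761, 17265 and 14182 CPM in sham rats 1, 2 and 3. miR-219a-2-3p made up nearly all of this sum and, like miR-125a-5p and miR-99b-5p, was highest in BCP rat 1 and sham rat 2. miR-338-3p and miR-219a-5p, at no more than 29.2 and 6.33 CPM, were lowest in these same rats, so the list did not move as a whole. Endothelial miRNAs (both arms of miR-126a) summed to 13530, 18088 and 20260 CPM in the BCP rats against 16625, 14240 and 19845 CPM in the sham rats, and each arm was lowest in BCP rat 1 and sham rat 2. The leukocyte miRNAs, nearly all of them miR-150-5p, summed to 1283, 1153 and 975 CPM in the BCP rats against 1259, 1379 and 1090 CPM in the sham rats, with the same order of rats as miR-125a-5p. miR-223-3p of that list was highest in BCP rat 1 and lowest in sham rat 2. Choroid plexus and ependyma miRNAs (all 3 detected) summed to 3979, 3350 and 3529 CPM in the BCP rats against 3966, 4469 and 3114 CPM in the sham rats. miR-204-5p carried that sum and, with miR-211-5p, was highest in BCP rat 1 and sham rat 2, whereas miR-448-3p was lowest in both. The neuronal sum had another order, with 127982, 125848 and 136378 CPM in the BCP rats against 133513, 127871 and 121047 CPM in the sham rats. Within it the strands were opposed. miR-128-3p was highest in BCP rat 1 and sham rat 2, like miR-125a-5p, whereas miR-9a-5p was lowest in both. The skeletal muscle sum was highest in BCP rat 1 and sham rat 1. The part of these lists in the departures was not tested.

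The ratio of each let-7 strand to the guide strand encoded beside it varied from rat to rat, and the counts of let-7c-5p and let-7a-5p can include a precursor outside the cluster. let-7c-5p to miR-99a-5p was 0.257, 0.187 and 0.178 in the BCP rats against 0.226, 0.267 and 0.184 in the sham rats. let-7e-5p to miR-99b-5p lay between 0.509 and 0.612, and let-7a-5p to miR-100-5p between 0.550 and 0.740. The BCP group differed from the sham group by -0.13, 0.028 and 0.057 on the log2 scale in the same order (two-sided exact permutation test, p = 0.6, 0.7 and 0.7, adjusted p = 0.7 for each).

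The miRNAs with the nearest profile to each member were found among 185 others with at least 100 CPM, by the root mean square distance of log2 CPM over the 6 libraries after centring. For miR-99a-5p these were miR-1839-5p, miR-30e-3p and miR-10b-5p, at distances from 0.029 to 0.040 against a median of 0.167 over the 185. For miR-99b-5p they were miR-181a-5p, miR-338-5p and miR-323-3p, and for miR-125a-5p they were miR-328a-3p, miR-382-5p and miR-320-3p, at distances from 0.024 to 0.034. For miR-100-5p they were miR-487b-3p, miR-154-5p and miR-330-5p, and for miR-125b-5p they were miR-23b-3p, miR-125b-1-3p and miR-434-3p. miR-99b-5p and miR-125a-5p lay 0.052 from each other, and miR-99a-5p lay 0.099 from miR-100-5p and 0.109 from miR-125b-5p. A strand with a flat profile such as miR-99a-5p is near to other flat profiles on this measure.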

How the data were processed

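Small RNA of the lumbar spinal cord from 3 BCP and 3 sham-operated rats was analysed from the count table that the authors deposited. As the study's methods describe it, reads were trimmed and filtered with the FASTX Toolkit, clean reads were mapped to the rat genome (Rnor 6.0, with Bowtie2 2.2.3 in the submitters' processing notes), and known miRNAs were identified by length and miRBase. The deposited values are raw read counts for 753 mature miRNAs, not normalized. All 6 columns were assigned to a sample by the labels.

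Tests were run with edgeR 4.0.16 (R 4.3.3). Its filterByExpr function with a minimum count of 10 kept 459 miRNAs, normalization was TMM, and groups were compared by quasi-likelihood tests, adjusted over all 459 by the Benjamini-Hochberg method. A miRNA was called at an adjusted p below 0.05 and an absolute log2 fold change above 0.8, the thresholds of the study. CPM is the count scaled by the TMM-adjusted library total. Fold change intervals (95%) came from the standard error and degrees of freedom of that test. The procedure was also run on simulated data, with results that are not given here. Shares and log2 ratios were compared by two-sided exact permutation tests in scipy 1.17.1, which cannot go below p = 0.1 with 3 rats against 3. The sign-flip test planned for the order of levels is not reported, because the order was taken from the same 6 libraries. Alternatives used DESeq2 1.42.0 and limma 3.58.1.

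The miRNAs named are the 5 members, the 12 other strands of the named precursors in their clusters, and relatives by seed or family. The 10 most abundant miRNAs and the listed cell type markers are also named. For each member, the 3 miRNAs with at least 100 CPM that have the nearest profile over the 6 libraries were added. Members and lists were chosen with earlier results of these data known. Names and sequences are from RefSeq (GRCr8), whose coordinates are not given because the reads were mapped to another build.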

Additional observations from a re-analysis of the deposited data

How the results depend on the processing

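None of the 5 guide strands was called under any setting run: no filter, a filter of 10 counts per library, scaling by totals or by RLE, scaling without the 5 members, DESeq2, limma-voom, the likelihood ratio and exact tests of edgeR, no limit on the fold change, the replicate block, and leaving out each rat. Of all tested miRNAs, these settings called between 8 of 467 (without BCP rat 2) and 25 of 459 (likelihood ratio test of edgeR). Over all these settings the median log2 fold change of all tested miRNAs stayed within 0.1 of 0. The log2 fold change of miR-125b-5p turned from -0.0015 to 0.0051 under the filter of 10 counts, 0.00085 without the members in the scaling, 0.0021 with limma-voom and 0.00092 with the replicate block. The difference in the summed share turned from below 0 to 0.0079 percentage points with TMM-scaled library sizes. The cause of these turns was not tested.

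Leaving out a rat turned some signs. The log2 fold change of miR-125b-5p ranged from -0.11 to 0.040, its share difference from -0.147 to 0.123 percentage points, and that of the 5 members from -0.454 to 0.0906. The log2 ratio differences ranged from -0.018 to 0.12 for miR-99a-5p to miR-125b-5p, from -0.059 to 0.011 for miR-99b-5p to miR-125a-5p, from -0.040 to 0.089 for 100 to 99b, from -0.019 to 0.12 for the family sums, from -0.082 to 0.024 for the arms of miR-125a, from -0.29 to 0.0038 for let-7c to 99a, from -0.039 to 0.15 for let-7a to 100 and from -0.031 to 0.095 for let-7e to 99b. Without sham rat 3 the log2 fold change of miR-100-5p was -0.18. The other results kept their sign, but several moved by over 1.5 times. The log2 fold change of miR-99a-5p was 0.011 without sham rat 3 and 0.026 without BCP rat 3. The ratio of miR-125b-5p to miR-125a-5p differed by 0.051 without sham rat 2, and that of miR-99a-5p to miR-99b-5p by 0.11 without sham rat 2, 0.12 without BCP rat 3 and 0.28 without sham rat 3 or BCP rat 1. Share differences ranged from 0.109 to 0.580 points for miR-99a-5p, -0.138 to -0.0573 for miR-99b-5p and -0.206 to -0.0269 for miR-125a-5p. The ratio difference of miR-100-5p to miR-125b-5p was -0.072 without sham rat 3. The arm ratio of miR-125b-5p to miR-125b-1-3p was 0.035 without BCP rat 2, that to miR-125b-2-3p -0.048 without sham rat 1, and that to both 3p arms ranged from -0.055 without BCP rat 2 to -0.018 without sham rat 1. The ratio of miR-99a-5p to miR-100-5p ranged from 0.12 to 0.20.

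The rats share replicate numbers only as names. The correlation of deviations between same-numbered rats was 0.109, -0.452 and 0.711, so the numbers did not pair them, and with the replicate block 0 members and 18 miRNAs in all were called, against 16 without it. Over the whole table edgeR's likelihood ratio test called 25 and its exact test 24, and leaving out a rat gave 8 (without BCP rat 2) to 20, with 9 without sham rat 1 and 10 without BCP rat 3. With 3 rats against 3 the exact tests cannot pass 0.05, so they say nothing on whether shares and ratios are alike, and miR-100-3p and miR-99a-3p are limited by few counts.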

Other observations

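The table counts 2 strands of the let-7 family with the same mature sequence, let-7a-1-3p and let-7c-2-3p, under separate names. They had 2786 and 2717 counts in BCP rat 1, 2394 and 2332 in BCP rat 2, and 1251 and 1366 in sham rat 2. The counts of a pair were near to each other in each of these libraries and not equal. How shared reads were divided is not stated in the sources used here, and none of the 4 guide strands with a sequence is in this position.

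miR-125a-5p has 24 bases in RefSeq, and the study's methods describe known miRNAs by a shorter length. It was nevertheless counted between 163469 and 316083 times per library.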
